A study of Mus musculus with 9 samples.

Results

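The 38 genes described here act in the unfolded protein response and in endoplasmic reticulum (ER) quality control, and were measured by RNA sequencing in BeCon mouse ovarian tumor cells. They were chosen by name, from lists of stress sensors, ER chaperones, disulfide isomerases, degradation factors and secretory machinery, with no threshold on a measured value but with earlier results of these data known, and all 38 were found among the 48230 genes of the deposited table. All 38 reached at least 1 FPKM in all 9 libraries (FPKM, fragments scaled to transcript length and to the mapped fragments of a library, the authors' deposited unit), so all of them were among the 11788 genes of the treatment comparison. The 4 YKL-05-099 libraries came from BeCon-bearing B6 mice given YKL-05-099, a compound that inhibits the salt-inducible kinases. The cultured library came from the same tumor cells grown in vitro and has no replicate. The 4 vehicle libraries came from BeCon-bearing B6 mice given the vehicle. All mouse libraries were made from ascites cells sorted as viable, CD45-negative and MHC class I-positive, whereas the labels describe no sort for the cultured cells. Dose, schedule, sex and age are not in the labels, and neither is whether a library holds 1 mouse or a pool, so the p-values rest on the variation among these libraries, which may be partly technical. Library names of treated mice share a prefix and those of vehicle mice share another, and a cage or batch behind the prefix cannot be told apart from treatment.

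The unfolded protein response is started by sensors in the ER membrane that detect unfolded proteins: IRE1 (gene Ern1), which splices Xbp1 mRNA into the form encoding an active transcription factor, ATF6, which is cut in the Golgi by the site-1 protease (gene Mbtps1), and PERK (gene Eif2ak3), which phosphorylates the translation factor eIF2 alpha. XBP1 and ATF6 raise transcription of chaperones, of enzymes that form disulfide bonds and of ER-associated degradation (ERAD), the route by which misfolded proteins are moved to the cytosol and destroyed. The response is known to be active in many tumors and in cells that secrete much protein. A gene-level FPKM adds up spliced and unspliced Xbp1 mRNA, and neither the splicing nor the activity of any sensor was measured.

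Promoters of several of these genes carry the ER stress response element, a CCAAT box followed by 9 bases of any kind and CCACG, at which the factor NF-Y and ATF6 or XBP1 are known to bind. RefSeq promoters of GRCm38.p6, from 250 bases before to 50 bases after the transcription start, were searched for it on both strands. Of the 38 genes 33 had an entry there, and 7 of these 33 (21.2%) held the exact element, against 39 of all 32851 promoters (0.119%). The 38 genes were chosen as members of the response for which this element is known, so the larger share follows from that choice and is not a result. Here and below, shares of the 33 count genes, whereas shares of all promoters count entries. The 8 copies are shown because the genes they belong to, Hspa5, Hsp90b1, Dnajc3, Creld2, Pdia6, Syvn1 and Derl3, are chaperones, a cochaperone, an isomerase and degradation factors that fall on both sides of the treatment test. Each line gives 20 bases on either side, on the strand of the gene, with the element in capitals. Where it lies on the opposite strand, the capitals read CGTGG, 9 bases and ATTGG.
Hspa5 (chr2:34772005-34772063, plus strand): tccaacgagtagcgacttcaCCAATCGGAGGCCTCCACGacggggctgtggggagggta
Hsp90b1, distal copy (chr10:86705618-86705676, minus strand): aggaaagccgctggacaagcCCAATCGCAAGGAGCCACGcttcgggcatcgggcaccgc
Hsp90b1, proximal copy (chr10:86705513-86705571, minus strand): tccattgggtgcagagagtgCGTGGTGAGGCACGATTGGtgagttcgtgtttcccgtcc
Dnajc3 (chr14:118937807-118937865, plus strand): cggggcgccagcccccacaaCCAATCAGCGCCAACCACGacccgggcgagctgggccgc
Creld2 (chr15:88819500-88819558, plus strand): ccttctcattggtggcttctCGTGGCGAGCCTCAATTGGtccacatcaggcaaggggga
Pdia6 (chr12:17266471-17266529, plus strand): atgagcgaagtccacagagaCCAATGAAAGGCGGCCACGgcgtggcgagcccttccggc
Syvn1 (chr19:6046512-6046570, plus strand): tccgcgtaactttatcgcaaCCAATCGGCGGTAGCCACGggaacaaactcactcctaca
Derl3 (chr10:75893222-75893280, plus strand): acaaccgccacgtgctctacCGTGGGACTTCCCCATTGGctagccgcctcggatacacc

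The deposited loci of Hspa5 (from position 34771970), Pdia6 (from 17266545) and Hsp90b1 (from 86705509, on the minus strand) begin further upstream than the RefSeq starts used here. The distances given here hold for the RefSeq starts only. The elements began between 44 bases (Syvn1) and 212 bases (the distal copy of Hsp90b1) before the RefSeq transcription start. The related element II, ATTGG followed by 1 base and CCACG, was present in 12 of the 32851 promoters (0.0365%) and in 2 of the 33, those of Herpud1, a membrane protein of the ERAD complex, and of Dnajb11, a cochaperone of BiP. It is shown for Herpud1 only, since the match of Dnajb11 lies 7 to 17 bases after the start, outside the stretch printed here. Herpud1 had the largest fold change of the 38 genes under treatment, and Dnajb11 was not called. A part of the element in either result was not tested.
Herpud1 (chr8:94386357-94386407, plus strand): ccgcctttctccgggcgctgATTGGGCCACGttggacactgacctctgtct
The cyclic AMP response element TGACGTCA, a palindrome bound by the CREB family, was found in 588 promoters (1.79%). Among the 33 it was in 1 (3.03%), that of Ppp1r15a, where it began 12 bases before the start. It is shown because salt-inducible kinases are known to restrain coactivators of CREB, and a part of it in the change of Ppp1r15a was not tested.
Ppp1r15a (chr7:45526269-45526300, minus strand): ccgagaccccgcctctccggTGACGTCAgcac
The 8-base element TGACGTGG, at which XBP1 and ATF6 can bind, was in 222 promoters (0.676%) and among the 33 only in Sec24d. Its inner part ACGTGG was in 2729 promoters (8.31%) and in 13 of the 33 (39.4%), and it overlapped the 8-base element in Sec24d and ER stress response element II in Herpud1. In the treatment comparison described below, 28.0% of all tested genes were called higher after YKL-05-099. Of the 7 genes with the first element 4 were called higher and 3 were not called, and of the other 26 promoters 11 belonged to genes called higher. Of the 4, Hsp90b1 and Syvn1 were called in all 8 fits that left out 1 library, Derl3 in 3 and Pdia6 in 2. A link between the element and the calls was not tested. A match is only a description of these letters, and binding was not measured.

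**Figure D1:**
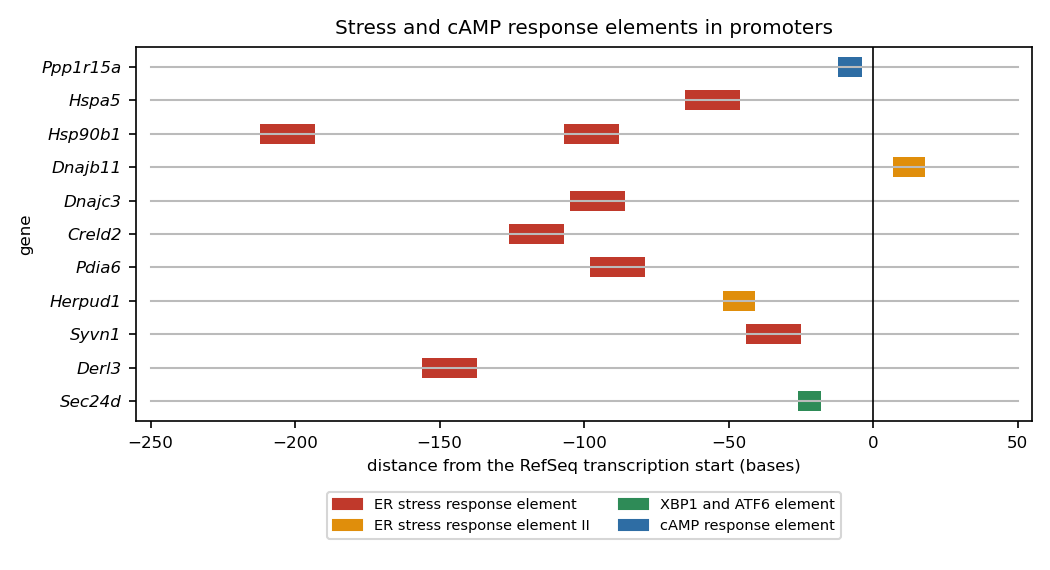
Position of exact matches to 4 response elements (coloured boxes) in the RefSeq promoters of 11 genes, in bases from the transcription start (vertical line at 0), with the searched stretch from 250 bases before to 50 after it as a grey line. The ER stress response element lies between 212 and 26 bases before the start in 7 genes, with 2 copies in Hsp90b1.

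FPKM summed to 453169 to 482851 per library, at a depth estimated at 23000000 to 35000000 fragments, too rough for a counting interval on any gene. Log2(FPKM + 1) of the tested genes correlated at 0.988 to 0.992 between YKL-05-099 libraries, at 0.985 to 0.993 between vehicle libraries and at 0.856 to 0.874 between the cultured library and the mouse libraries, across genes, which are not independent replicates. Of 8 epithelial and mesothelial markers 6 averaged at least 1 FPKM in each mouse group, with Wt1, Krt19 and Krt18 highest, but the epithelial marker Epcam averaged 0.0737 FPKM in YKL-05-099 and 0.457 FPKM in vehicle libraries, and the Mullerian factor Pax8 was listed at 0 in YKL-05-099 and averaged 0.0431 FPKM in vehicle libraries. Summed over 10 macrophage markers, YKL-05-099 libraries stood at 19.4 to 73.1 FPKM, the cultured library at 10.5 FPKM and vehicle libraries at 132 to 287 FPKM. For 10 pan-leukocyte markers the sums were 19.1 to 30.0 FPKM in YKL-05-099, 13.6 FPKM in cultured and 42.6 to 82 FPKM in vehicle libraries. For 12 B and plasma cell markers, plasma cells being known for high levels of many ER genes, they were 35.7 to 43.3 FPKM in YKL-05-099, 47.9 FPKM in cultured and 53.9 to 105 FPKM in vehicle libraries. Within that list Sdc1, which epithelial cells also express, averaged 37.8 FPKM in YKL-05-099 and 34.8 FPKM in vehicle libraries. In the cultured library Sdc1 stood at 46.9 FPKM, nearly all of the sum, and Igkc, Igha and Ighm were listed at 0. The immunoglobulin genes Igkc, Igha and Ighm averaged 0.217, 0.0183 and 0.125 FPKM in YKL-05-099 libraries and 19.7, 7.38 and 6.17 FPKM in vehicle libraries, and Jchain 0.0313 FPKM in YKL-05-099 and 2.02 FPKM in vehicle libraries. The other 7 markers of the list averaged under 1 FPKM in both groups, and of its 5 tested genes 4 were called lower after YKL-05-099. Sums of 6 erythroid markers were 1.45 to 92.8 FPKM in YKL-05-099, 0.188 FPKM in cultured and 244 to 1487 FPKM in vehicle libraries, and those of 7 T and NK cell markers stayed at or under 0.494 FPKM. Sums of 6 fibroblast markers were 517 to 597 FPKM in YKL-05-099, 309.6 FPKM in cultured and 608 to 653 FPKM in vehicle libraries, mostly from Dcn. Sums of 5 endothelial markers were 5.48 to 7 FPKM in YKL-05-099, 1.18 FPKM in cultured and 5.48 to 8.24 FPKM in vehicle libraries. Several of these marker sums thus moved with treatment, and their part in the results was not tested. In bulk RNA of sorted cells, fewer cells of a type and less RNA per cell cannot be told apart.

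Set side by side on the per-length FPKM scale, the 38 genes spanned 2.65 FPKM (Derl3, vehicle replicate 1) to 1247 FPKM (Hspa5, vehicle replicate 4). The gene means of the vehicle group were highest for Hspa5 (764 FPKM), P4hb (397 FPKM), Ssr3 (236 FPKM), Hsp90b1 (218 FPKM) and Xbp1 (168 FPKM). They were lowest for Derl3 (3.68 FPKM), Pdia5 (5.11 FPKM), Eif2ak3 (7.82 FPKM) and Ern1 (7.88 FPKM), so both membrane kinases of the response were among the least abundant of its mRNAs. The coefficient of variation between YKL-05-099 libraries ran from 3.00% for Os9 to 36.3% for Creld2, with Herpud1 at 29.9% and Hspa5 at 18.3%. Between vehicle libraries it ran from 1.53% for Ssr3 to 46.5% for Herpud1, with Hspa5 at 42.7% and Sdf2l1 at 42.3%.

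The treatment comparison asked which of the 38 genes differed between tumor cells of YKL-05-099 and vehicle mice. It used limma on log2(FPKM + 1), with Benjamini-Hochberg adjustment over all 11788 genes and a call under an adjusted p of 0.05. After YKL-05-099, 15 of the 38 genes were called higher, 2 were called lower and 21 were not called. The higher genes were Herpud1, Sdf2l1, Syvn1, Ppp1r15a, Derl3, Dnajb9, Edem1, Hsp90b1, Pdia4, Pdia6, Xbp1, Edem2, Eif2ak3, Derl2 and Os9, and the lower genes were Creb3l2 and Creb3. The 17 calls were 44.7% of the 38 genes, near the 43.2% of all tested genes called in either direction, where 28.0% were called higher and 15.1% lower. The median log2 fold change was 0.16 for the 38 genes and 0.05 for all genes. By role, calls fell on 7 of 10 ERAD genes, 3 of 9 chaperones and cochaperones and 2 of 4 disulfide isomerases, all higher, on 5 of 9 sensors and transcription factors (3 higher, 2 lower) and on none of 6 genes of protein entry and exit. The block of 9 sensors and transcription factors also holds Mbtps1 and Ppp1r15a, which encode neither. The groups did not overlap for 5 genes (Edem2, Ppp1r15a and Os9 higher, Creb3 and Creb3l2 lower), where 40.0% of all tested genes did not overlap, 26.5% higher and 13.5% lower. After median-of-ratios scaling the calls among the 38 were 10 higher and 4 lower, or 71.4% higher in place of 88.2%, and over all genes 2497 higher and 2466 lower, or 50.3% higher in place of 64.9%. After quantile scaling they were 10 higher and 3 lower (76.9% higher), where 21.3% of all genes were higher and 20.5% lower.

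**Figure D2:**
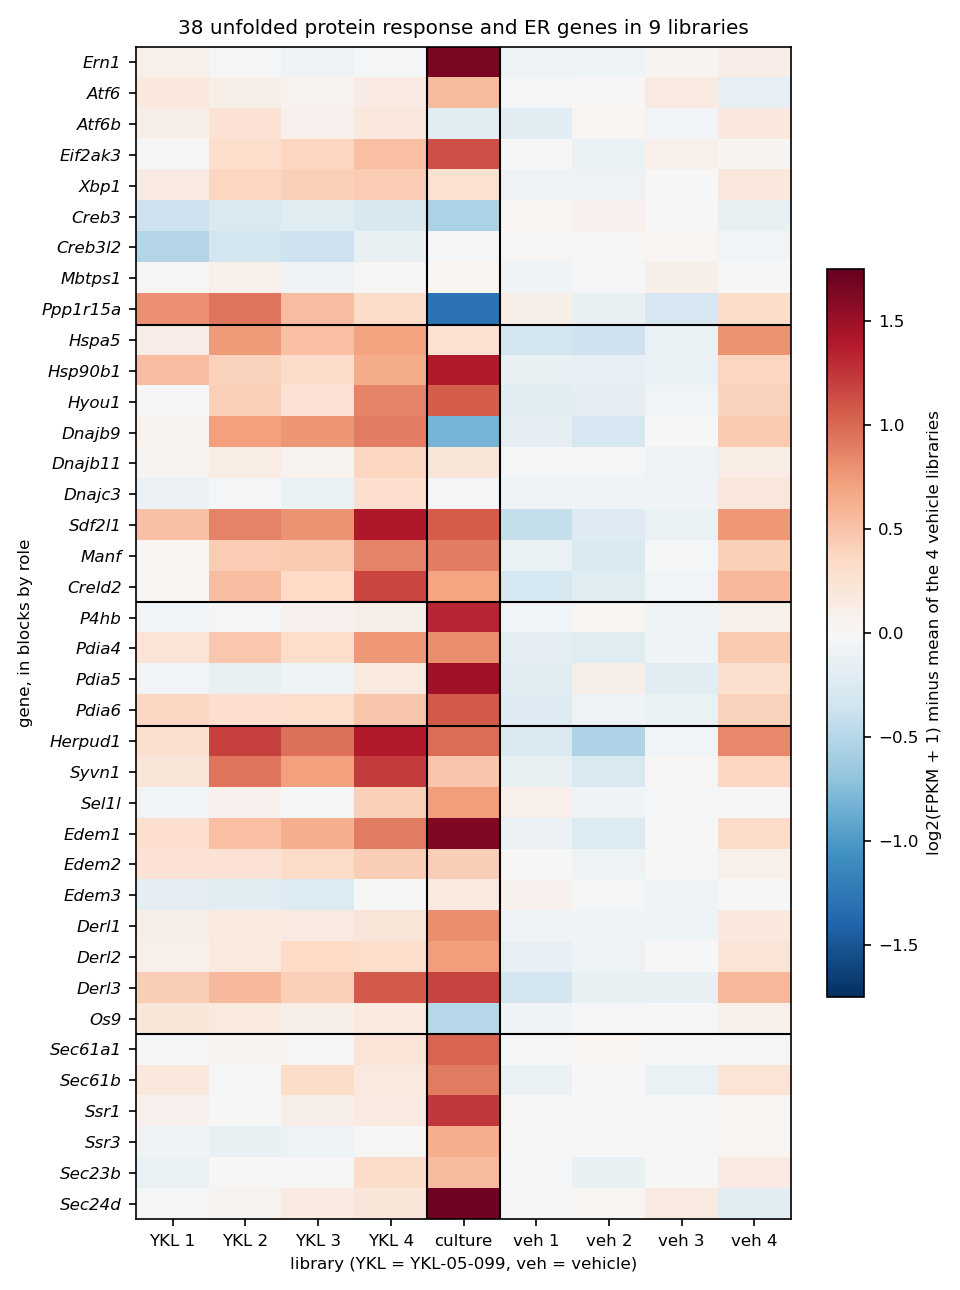
Heat map of log2(FPKM + 1) minus the mean of the 4 vehicle libraries for the 38 genes (vertical, in blocks by role) in each of the 9 libraries (horizontal), red above and blue below the vehicle mean. Replicate 4 is the highest YKL-05-099 library for 28 of the genes and the highest vehicle library for 29.

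The 2 libraries numbered 4 in the sample titles stood apart from the others of their groups. Their library names end in different numbers, and the labels give no link between the 2. YKL-05-099 replicate 4 was the highest library of its group for 28 of the 38 genes (73.7%), against 30.3% of all tested genes, with a median difference of 0.23 log2 units from the mean of the others. YKL-05-099 replicate 1 was the lowest for 22 genes (57.9%, against 24.8% of all tested genes). Vehicle replicate 4 was the highest vehicle library for 29 of the 38 genes (76.3%, against 31.7% of all tested genes), with a median difference of 0.25, where the median over all tested genes was -0.00. Both replicates 4 were the lowest of their groups in summed pan-leukocyte markers (19.1 FPKM in YKL-05-099 and 42.6 FPKM in vehicle) and in summed erythroid markers (1.45 FPKM in YKL-05-099 and 244 FPKM in vehicle). Summed macrophage markers were 21.3 FPKM in YKL-05-099 replicate 4 and 138 FPKM in vehicle replicate 4, each the second lowest of its group. Summed B and plasma cell markers were 35.7 FPKM in YKL-05-099 replicate 4, the lowest of its group, and 72.9 FPKM in vehicle replicate 4, the second highest. YKL-05-099 replicate 1 had the lowest macrophage sum of its group (19.4 FPKM) and the second lowest pan-leukocyte (21.2 FPKM) and erythroid (9.21 FPKM) sums. The part of these cell types in the height of both libraries was not tested. Of the 15 genes called higher, 14 had vehicle replicate 4 as the highest vehicle library. Without vehicle replicate 4, 21 of the 38 genes were called higher and 2 lower, 7 of which were not called with all libraries, where 29.5% of all genes were higher and 17.5% lower. Without YKL-05-099 replicate 1, 15 were higher (39.5%), where 24.5% of all genes were. Without any other single library (YKL-05-099 replicates 2, 3 and 4, vehicle replicates 1, 2 and 3) 7 to 9 were higher (18.4% to 23.7%), where 23.5% to 25.0% of all genes were, so that the share among the 38 was in each of these 6 fits below that of all genes. With no filter on low values, which tested 24793 genes, 6 were called higher (15.8%) and 2 lower, where 12.1% of all genes were higher and 7.64% lower. Without both replicates 4, an alternative chosen after seeing the data, 22 were higher and 3 lower, where 28.1% of all genes were higher and 17.1% lower.

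**Figure D3:**
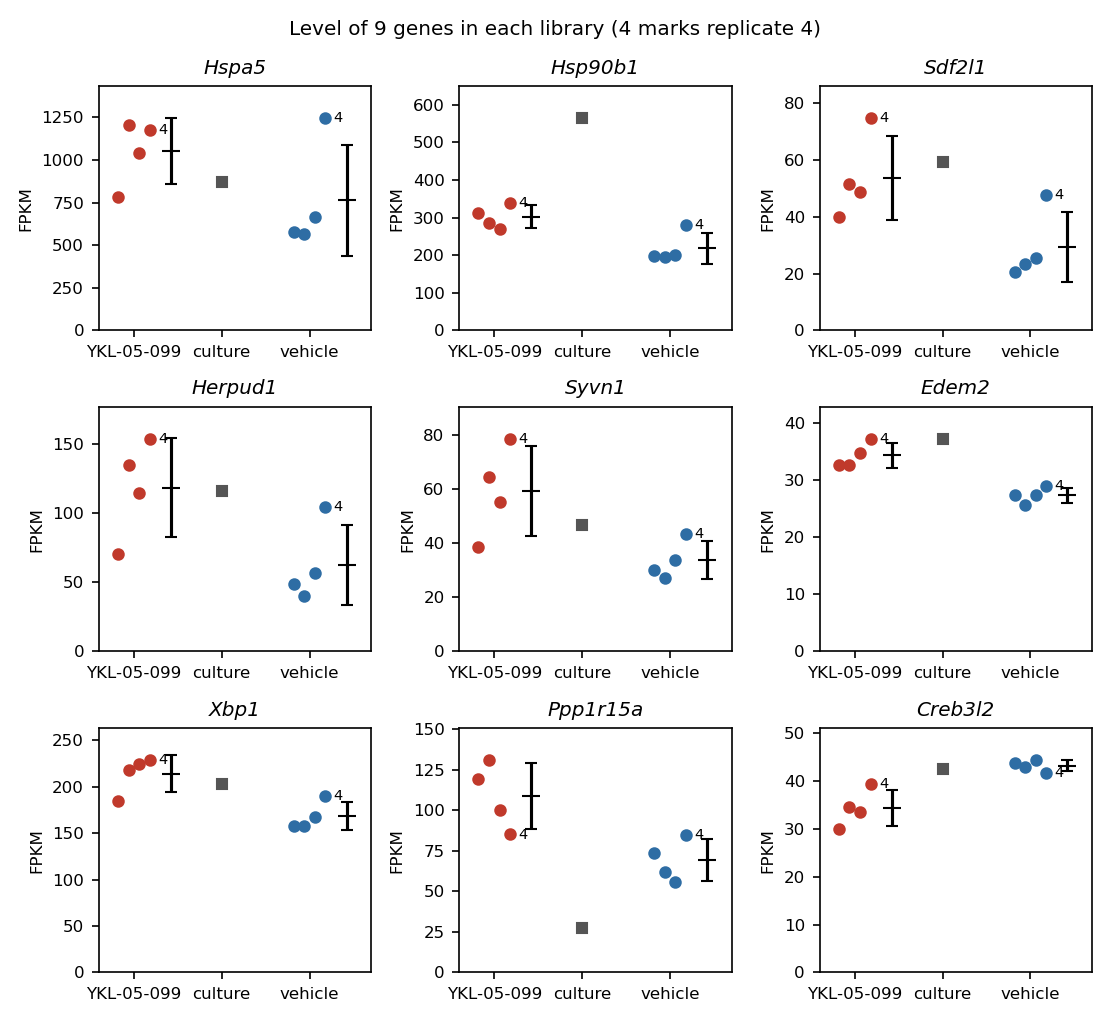
FPKM of 9 of the genes in each YKL-05-099 library (red), in the cultured library (grey square) and in each vehicle library (blue), with the mean and SD of the 4 libraries beside the points and replicate 4 marked. Vehicle replicate 4 is the highest vehicle point in each panel except that of Creb3l2, and reaches into the YKL-05-099 range or above it for Hspa5, Hsp90b1, Sdf2l1, Herpud1, Syvn1 and Xbp1.

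In the block of sensors and transcription factors, Xbp1, Eif2ak3 and Ppp1r15a rose, Creb3 and Creb3l2 fell, and Ern1, Atf6, Atf6b and Mbtps1 were not called. Xbp1, the transcription factor gene spliced by IRE1 (chr11:5520659-5525893), stood at 185, 218, 225 and 229 FPKM in YKL-05-099 replicates 1 to 4, against 158, 158, 167 and 190.1 FPKM in vehicle replicates 1 to 4. Its groups overlapped only through the lowest treated and the highest vehicle library, and its log2 fold change was 0.35 (SE 0.0813, limma adjusted p = 0.00726). Eif2ak3, which encodes PERK, stood at 7.65, 9.92, 10.4 and 11.7 FPKM in YKL-05-099 libraries, against 7.73, 7.09, 8.34 and 8.12 FPKM in vehicle libraries. Replicate 1 lay within the vehicle values, and the log2 fold change of 0.30 (95% interval 0.06 to 0.54, limma adjusted p = 0.0477) passed in a single leave-one-out fit, that without YKL-05-099 replicate 1 (0.40, limma adjusted p = 0.00417). In the other 7 such fits its limma adjusted p was 0.055 to 0.12, and it was 0.0892 and 0.155 after median-of-ratios and quantile scaling. Ppp1r15a, also called GADD34, directs a phosphatase to eIF2 alpha and so ends PERK signaling. It stood at 119, 131, 100.0 and 85.1 FPKM in YKL-05-099 libraries, against 73.4, 62.1, 55.6 and 85 FPKM in vehicle libraries. The groups were separate only by the narrow gap between both replicates 4, and the log2 fold change was 0.65 (SE 0.152, limma adjusted p = 0.00723). Of the sensors, Ern1 stood at 8.47, 7.77, 7.3 and 7.66 FPKM in YKL-05-099 libraries, against 7.31, 7.4, 8.19 and 8.64 FPKM in vehicle libraries, with a 95% interval of the log2 difference of -0.17 to 0.14. Atf6 stood at 24.8, 23.3, 22.6 and 24 FPKM in YKL-05-099 libraries, against 21.4, 21.7, 24.2 and 19.6 FPKM in vehicle libraries, with an interval of -0.02 to 0.26. Atf6b, a relative of Atf6, stood at 28.5, 31.9, 28.1 and 30.4 FPKM in YKL-05-099 libraries, against 23.2, 27.2, 25.7 and 30.4 FPKM in vehicle libraries, with an interval of -0.01 to 0.33. The groups of these 3 genes overlapped, although Atf6 passed without vehicle replicate 3 (log2 fold change 0.17, limma adjusted p = 0.042) and Atf6b without vehicle replicate 4 (0.22, limma adjusted p = 0.0197). Mbtps1 averaged 47.4 ± 2.21 FPKM in YKL-05-099 and 46.9 ± 2.33 FPKM in vehicle libraries (SD, n = 4 each).

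Creb3 and Creb3l2 encode ER-anchored transcription factors of the CREB3 family, which are cut in the Golgi like ATF6 and are known for driving secretory genes. Creb3 (chr4:43562332-43567060) stood at 81.1, 86, 89.7 and 85.3 FPKM in YKL-05-099 libraries, against 107, 109.6, 105 and 95.5 FPKM in vehicle libraries. Creb3l2 (chr6:37327255-37442146) stood at 30.0, 34.5, 33.5 and 39.3 FPKM in YKL-05-099 libraries, against 43.8, 42.9, 44.4 and 41.7 FPKM in vehicle libraries. Every treated library lay under every vehicle library for both genes. Creb3 fell by 0.28 on the log2 scale (SE 0.0524, limma adjusted p = 0.00215) and Creb3l2 fell by 0.33 (SE 0.071, limma adjusted p = 0.00478), and both calls held in all 8 leave-one-out fits and under each scaling. Exons of other genes, on the opposite strand, cover 20.78% of the exonic bases of Creb3. The strand setting of the authors' counting is not given in the sources used here. Reads of those genes could therefore enter the level and the change of Creb3, by an amount that this share does not bound.

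Among the chaperones, the ER form of HSP90 and the cochaperones Sdf2l1 and Dnajb9 rose, while Hspa5 and the remaining 5 were not called with all libraries. Hspa5 encodes BiP, the HSP70 of the ER, which holds the sensors inactive in unstressed cells. It stood at 784, 1205, 1042 and 1177 FPKM in YKL-05-099 libraries, against 578, 563, 666 and 1247 FPKM in vehicle libraries. Vehicle replicate 4 was the highest of all 9 libraries, while every treated library lay above the other vehicle libraries. The log2 fold change was 0.52 (95% interval -0.01 to 1.06, limma adjusted p = 0.104), and without vehicle replicate 4 it was 0.79 (limma adjusted p = 0.00169). In every other leave-one-out fit Hspa5 missed the threshold (limma adjusted p 0.0649 to 0.245). Hsp90b1, which encodes the chaperone GRP94 (chr10:86690209-86705509), stood at 313, 285, 270.0 and 339.6 FPKM in YKL-05-099 libraries, against 198, 196, 199.6 and 280.0 FPKM in vehicle libraries. Its log2 fold change was 0.48 (SE 0.118, limma adjusted p = 0.00932), and 15.67% of its exonic bases are covered by other genes. Sdf2l1, a partner of the cochaperone Dnajb11, stood at 40.0, 51.4, 48.6 and 74.7 FPKM in YKL-05-099 libraries, against 20.6, 23.5, 25.6 and 47.7 FPKM in vehicle libraries. The vehicle groups of both genes had 3 libraries close together under all treated ones and a replicate 4 that reached into the treated range. Sdf2l1 rose by 0.89 on the log2 scale (SE 0.252, limma adjusted p = 0.0174), a call that missed the threshold without vehicle replicate 2 (0.81, limma adjusted p = 0.0516). Dnajb9, a cochaperone known to keep IRE1 inactive, stood at 41, 64.9, 67.5 and 73.9 FPKM in YKL-05-099 libraries, against 34.8, 31.8, 39.1 and 54 FPKM in vehicle libraries. YKL-05-099 replicate 1 lay among the vehicle libraries. Its log2 fold change of 0.61 (limma adjusted p = 0.0295) passed without vehicle replicate 4 (0.76, limma adjusted p = 0.00624) and without YKL-05-099 replicate 1 (0.80, limma adjusted p = 0.0046), and missed the threshold without any other library (limma adjusted p 0.0592 to 0.0845).

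Of the chaperone genes not called, Creld2, Manf and Hyou1 had log2 fold changes of 0.52, 0.45 and 0.38 (limma adjusted p = 0.111, 0.0634 and 0.112). Hyou1, a nucleotide exchange factor of BiP, ranged from 38.4 to 70.7 FPKM in YKL-05-099 libraries and from 33.6 to 50.9 FPKM in vehicle libraries. Manf, a BiP-binding protein that cells also secrete under stress, ranged from 88 to 158 FPKM in YKL-05-099 and from 72.1 to 115 FPKM in vehicle libraries. Creld2, a stress-inducible ER protein, ranged from 33.4 to 74.8 FPKM in YKL-05-099 and from 26.1 to 48.8 FPKM in vehicle libraries. In all 3 genes both replicates 4 were the highest of their groups, and without vehicle replicate 4 each passed, at 0.71 for Creld2, 0.59 for Manf and 0.52 for Hyou1 (limma adjusted p = 0.0244, 0.0135 and 0.0287). Without YKL-05-099 replicate 1, Manf (0.59, limma adjusted p = 0.0186) and Hyou1 (0.51, limma adjusted p = 0.0447) passed as well. Their remaining leave-one-out fits and those of Creld2 missed the threshold. The limma adjusted p there was up to 0.256 for Creld2, 0.162 for Manf and 0.259 for Hyou1. Dnajb11 averaged 53.7 ± 6.05 FPKM in YKL-05-099 and 48 ± 3.28 FPKM in vehicle libraries, with an interval of the log2 difference of -0.02 to 0.33. Dnajc3, a cochaperone also known as p58IPK, averaged 36 ± 5.3 FPKM in YKL-05-099 and 35.6 ± 3.52 FPKM in vehicle libraries, with an interval of -0.21 to 0.23. The promoters of Hspa5, Creld2 and Dnajc3 hold the ER stress response element and that of Dnajb11 holds element II, and none of these 4 genes was called with all libraries.

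**Figure D4:**
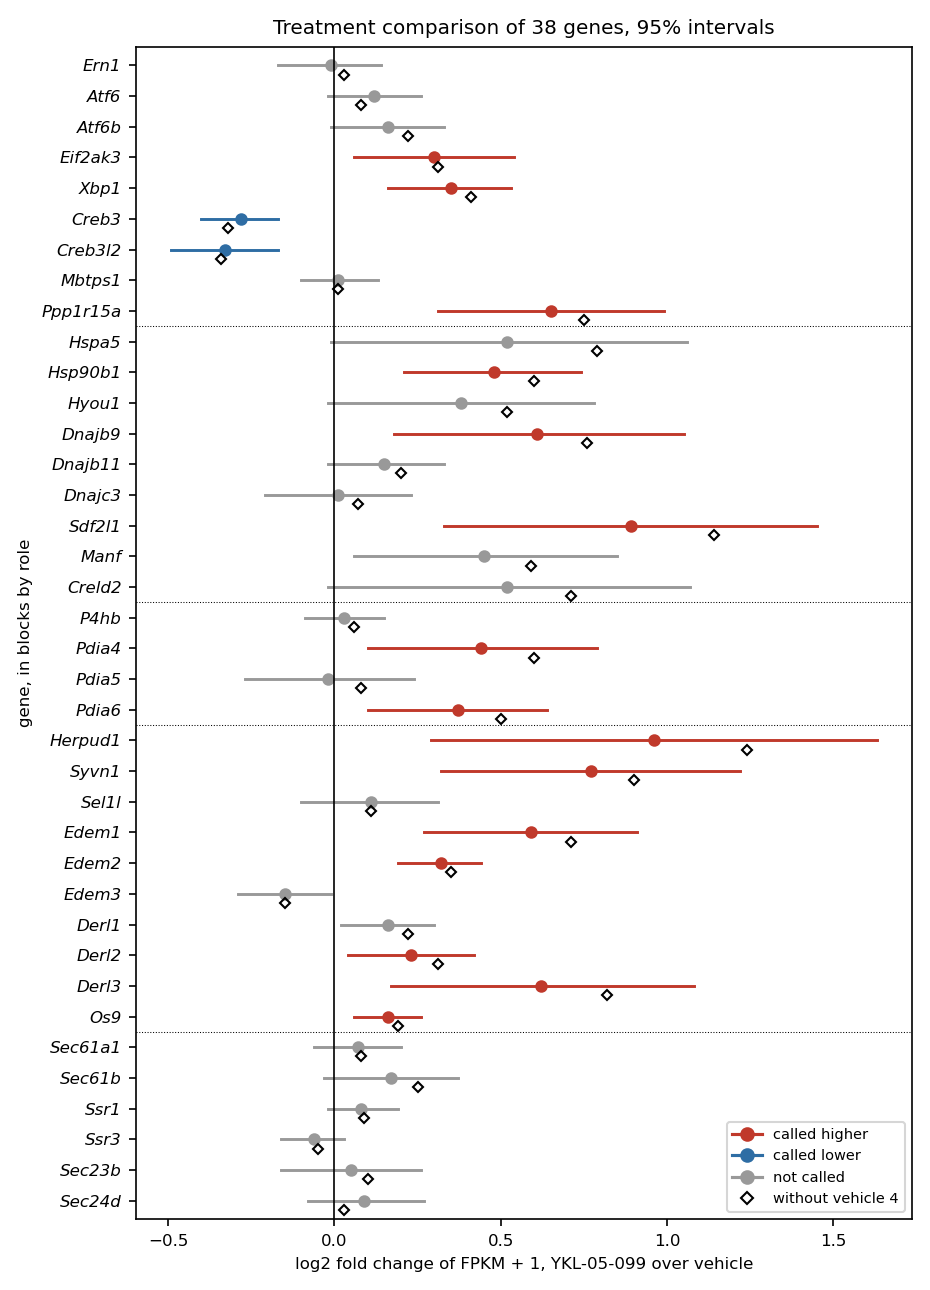
Log2 fold change of FPKM + 1, YKL-05-099 over vehicle (horizontal), with its 95% interval for each of the 38 genes (vertical, in blocks by role), red where called higher, blue where called lower and grey where not called. Open diamonds give the value without vehicle replicate 4, which for Hspa5 is 0.79 in place of 0.52 and for Herpud1 is 1.24 in place of 0.96. Hspa5 passed in no other leave-one-out fit.

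Disulfide isomerases form and reshuffle disulfide bonds of client proteins, and 2 of the 4 rose. Pdia6 stood at 131, 125, 126 and 143 FPKM in YKL-05-099 libraries, against 86.3, 97.1, 93.4 and 135 FPKM in vehicle libraries. Pdia4 stood at 73.9, 86.9, 78 and 107 FPKM in YKL-05-099 libraries, against 55.9, 53.8, 59.1 and 86.2 FPKM in vehicle libraries. For both genes, all treated libraries lay above vehicle replicates 1 to 3, and vehicle replicate 4 lay within the treated range. Log2 fold changes were 0.37 for Pdia6 (95% interval 0.10 to 0.64, limma adjusted p = 0.0318) and 0.44 for Pdia4 (95% interval 0.10 to 0.79, limma adjusted p = 0.0408). Pdia6 passed without vehicle replicate 4 (0.50, limma adjusted p = 0.000189) and without YKL-05-099 replicate 2 (0.39, limma adjusted p = 0.0487), and Pdia4 without vehicle replicate 4 (0.60, limma adjusted p = 0.00208) and without YKL-05-099 replicate 1 (0.51, limma adjusted p = 0.0371). Leaving out any other library ended both calls (limma adjusted p up to 0.0825 for Pdia6 and 0.11 for Pdia4), as did median-of-ratios scaling (0.0653 for Pdia6 and 0.0691 for Pdia4). P4hb, the most abundant of the family, averaged 405 ± 20.6 FPKM in YKL-05-099 and 397 ± 20.4 FPKM in vehicle libraries, with a 95% interval of the log2 difference of -0.09 to 0.15. Pdia5 averaged 5 ± 0.57 FPKM in YKL-05-099 and 5.11 ± 0.987 FPKM in vehicle libraries, with an interval of -0.27 to 0.24.

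Of the 10 ERAD genes 7 were called higher, where 28.0% of all tested genes were. Only Syvn1, Edem1 and Edem2 among them were called in all 8 leave-one-out fits. In a list of 22 further ERAD genes, described below, 4 were called higher. Herpud1, which organizes the degradation complex in the membrane (chr8:94386438-94395377), stood at 70.9, 135, 115 and 154 FPKM in YKL-05-099 libraries, against 48.6, 39.9, 56.6 and 105 FPKM in vehicle libraries. The groups overlapped through YKL-05-099 replicate 1, which lay under vehicle replicate 4, and the log2 fold change was 0.96 (95% interval 0.29 to 1.63, limma adjusted p = 0.0272). Syvn1 encodes HRD1, the ubiquitin ligase at the core of the complex (chr19:6046576-6053712). It stood at 38.7, 64.4, 55.1 and 78.5 FPKM in YKL-05-099 libraries, against 30.1, 27.3, 33.8 and 43.5 FPKM in vehicle libraries, and rose by 0.77 on the log2 scale (SE 0.201, limma adjusted p = 0.0119). Sel1l, the partner of HRD1, averaged 22.5 ± 3.62 FPKM in YKL-05-099 and 20.7 ± 1.01 FPKM in vehicle libraries, and its interval of the log2 difference was -0.10 to 0.31. The ligase gene was thus called and that of its partner was not, without a test of the difference between them.

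The EDEM proteins trim mannose from misfolded glycoproteins and mark them for degradation. Edem1 stood at 19.3, 22.9, 24.9 and 30.3 FPKM in YKL-05-099 libraries, against 14.4, 13.1, 15.7 and 20 FPKM in vehicle libraries. Edem2 (chr2:155701677-155729475) stood at 32.7, 32.6, 34.7 and 37.2 FPKM in YKL-05-099 libraries, against 27.3, 25.6, 27.3 and 29 FPKM in vehicle libraries. Edem1 overlapped by vehicle replicate 4 alone, and Edem2 did not overlap. Their log2 fold changes were 0.59 (SE 0.144, limma adjusted p = 0.00861) for Edem1 and 0.32 (SE 0.056, limma adjusted p = 0.00159) for Edem2, the smallest p among the 38 genes, and both held in all 8 leave-one-out fits. Edem3 went the other way without a call, at 11.6 ± 0.926 FPKM in YKL-05-099 and 12.9 ± 0.571 FPKM in vehicle libraries (log2 fold change -0.15, limma adjusted p = 0.0756). It passed as lower after median-of-ratios scaling (-0.21, limma adjusted p = 0.0218), after quantile scaling (-0.23, limma adjusted p = 0.0159) and without YKL-05-099 replicate 4 (-0.20, limma adjusted p = 0.0202). Os9, a lectin that delivers trimmed glycoproteins to HRD1, stood at 49.2, 47.7, 45.7 and 47.7 FPKM in YKL-05-099 libraries, against 40.7, 41.5, 42.4 and 45.4 FPKM in vehicle libraries. Its groups did not overlap, but the log2 fold change of 0.16 (limma adjusted p = 0.0188) missed the threshold without vehicle replicate 1 and without YKL-05-099 replicate 1 (limma adjusted p = 0.053 each) and after median-of-ratios (0.109) and quantile scaling (0.0583).

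Derlins are membrane proteins through which substrates leave the ER. Derl2 stood at 32.2, 34.2, 38.8 and 37.5 FPKM in YKL-05-099 libraries, against 27.3, 28.4, 30.1 and 35.3 FPKM in vehicle libraries (log2 fold change 0.23, limma adjusted p = 0.0481). Derl3, the least abundant of the 38 genes by its vehicle mean, stood at 5.14, 5.74, 5.04 and 8.53 FPKM in YKL-05-099 libraries, against 2.65, 3.13, 3.14 and 5.81 FPKM in vehicle libraries (log2 fold change 0.62, limma adjusted p = 0.0324). In both, vehicle replicate 4 reached into the treated range. Derl1 ranged from 83.5 to 90.6 FPKM in YKL-05-099 libraries and from 73.8 to 88.7 FPKM in vehicle libraries, with a log2 fold change of 0.16 (limma adjusted p = 0.0606) that passed without vehicle replicate 4 (0.22, limma adjusted p = 0.00191). It passed in no other leave-one-out fit (limma adjusted p up to 0.149). Of these ERAD calls, Herpud1 and Derl2 passed in 2 leave-one-out fits, without vehicle replicate 4 (log2 fold changes 1.24 and 0.31) and without YKL-05-099 replicate 1 (1.18 and 0.28). Derl3 passed in those 2 (0.82 and 0.68) and without YKL-05-099 replicate 3 (0.69). In the remaining leave-one-out fits the limma adjusted p was up to 0.0784 for Herpud1, 0.124 for Derl2 and 0.0846 for Derl3. Derl2 also missed the threshold after median-of-ratios and quantile scaling (limma adjusted p = 0.122 and 0.0902), and Derl3 after quantile scaling (0.0688). Derl1 has a near-identical copy, Gm35638, over 652 aligned bases at 95.4% identity, which could take part of its reads.

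None of the 6 genes of protein entry into and exit from the ER was called by limma, and 0 of them had an unadjusted p under 0.05. Sec61a1 and Sec61b, subunits of the channel through which new chains enter, averaged 110.3 ± 9.38 and 112 ± 10.4 FPKM in YKL-05-099 libraries, and 105 ± 2.11 and 100.1 ± 12.4 FPKM in vehicle libraries. Ssr1 and Ssr3, subunits of the translocon-associated protein complex, averaged 18 ± 0.853 and 226 ± 9.46 FPKM in YKL-05-099 libraries, and 16.9 ± 0.358 and 236 ± 3.61 FPKM in vehicle libraries. Sec23b and Sec24d, subunits of the COPII coat that buds vesicles off the ER, averaged 33.2 ± 4.7 and 26.2 ± 2.01 FPKM in YKL-05-099 libraries, and 31.9 ± 2.57 and 24.6 ± 2.51 FPKM in vehicle libraries. The 95% intervals of their log2 differences lay between -0.16 and 0.37 in all. Sec61b passed as higher without vehicle replicate 4 (0.25, limma adjusted p = 0.0181) and Ssr3 as lower after median-of-ratios scaling (-0.12, limma adjusted p = 0.0414). A gene copy of Sec61b, Gm10320, is 98.3% identical over 474 bases and had 0.0898 to 0.55 FPKM.

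Other genes of the same compartments, from lists written from textbook knowledge with none of the 38 among them, gave a mixed picture, to be read against the 28.0% of all tested genes called higher and the 15.1% called lower. In the PERK and ATF4 arm 5 of 14 tested genes rose and 3 fell, with a median log2 fold change of 0.05. Ddit3, which encodes the stress factor CHOP, stood at 48.9, 52.9, 57.5 and 51.4 FPKM in YKL-05-099 libraries, against 23.5, 18.2, 23.3 and 29.3 FPKM in vehicle libraries. All treated libraries lay well above all vehicle libraries (log2 fold change 1.14, limma adjusted p = 8.06e-05), a larger change than that of any of the 38 genes. Atf4 averaged 285 ± 9.88 FPKM in YKL-05-099 and 229 ± 17.1 FPKM in vehicle libraries (log2 fold change 0.32, limma adjusted p = 0.0019). Sesn2 rose as well (0.36), whereas Eif2s1, the gene of eIF2 alpha, fell (-0.23). The other genes that fell were Trib3 (-0.37) and Vldlr (-0.52), and the others that rose were Asns (0.22) and Chac1 (0.38). These other genes are named after their values were seen. In the list of folding and the glycoprotein cycle 11 of 23 rose and 1 fell, with a median of 0.19, led by Txndc12 (0.27), Fkbp2 (0.47), Cnpy2 (0.23) and Prkcsh (0.24). The gene that fell, Ero1l, an oxidase that feeds the disulfide isomerases and was named after its value was seen, averaged 6.16 ± 0.1 FPKM in YKL-05-099 and 9.24 ± 1.98 FPKM in vehicle libraries. Of 22 further ERAD genes 4 rose and 3 fell, with a median of -0.02, so that the share of calls among the 10 ERAD genes above was not seen in this list. Erlin1, which guides degradation of the IP3 receptor, led it at 49.9 ± 5.69 FPKM in YKL-05-099 and 26.8 ± 1.48 FPKM in vehicle libraries (log2 fold change 0.87, limma adjusted p = 4.85e-05), followed by Herpud2 (0.43) and Man1b1 (0.23). Of 27 genes of the translocon, signal peptidase and oligosaccharyltransferase 6 rose and 2 fell (median 0.08), with Spcs3 at -0.47, Magt1 at 0.37, Spcs2 at 0.28 and Sec11c at 0.38. Of 20 genes of COPII transport and the KDEL receptors none rose and 5 fell by limma (median -0.04, with 2 higher and 5 lower at an unadjusted p under 0.05), among them Sec23ip (-0.28), Mcfd2 (-0.18), Kdelr3 (-0.48) and Sec13 (-0.14).

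In these lists YKL-05-099 replicate 4 was the highest of its group for 14 of 20 COPII genes (70%), 16 of 27 translocon genes (59.3%), 13 of 23 folding genes (56.5%), 11 of 22 further ERAD genes (50%) and 3 of 14 genes of the PERK and ATF4 arm (21.4%), against 30.3% of all tested genes. Vehicle replicate 4 was the highest vehicle library for 16 of 23 folding genes (69.6%) and 15 of 27 translocon genes (55.6%), against 31.7% of all tested genes. It was the highest for 6 of 14 genes of the PERK and ATF4 arm (42.9%), 8 of 22 further ERAD genes (36.4%) and 5 of 20 COPII genes (25%). High values in both libraries were therefore not shared by every list.

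The cultured cells were set against the vehicle libraries to ask how the same genes stood outside the mouse. With 1 cultured library there is no test, and a gene was counted as apart when its value exceeded or fell short of every mouse library and differed by at least 1 log2 unit from the vehicle mean. Both comparisons share the vehicle libraries. By this rule 12 of the 38 genes were apart and higher in culture and 1 was lower, where 20.2% of 12296 genes were apart, 9.62% higher and 10.6% lower. The median log2 difference from vehicle was 0.73 for the 38 genes and 0.03 for all genes. Regardless of size, 22 of the 38 lay above all 8 mouse libraries and 5 below (37.4% and 36.2% of all genes), and 11 lay within the mouse range.

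The largest differences were those of Sec24d, Ern1 and Edem1. Sec24d, the COPII subunit, was at 81.7 FPKM in culture, against 24.4, 25.1, 27.4 and 21.3 FPKM in vehicle libraries (log2 difference 1.70). Ern1, the gene of IRE1, was at 26.8 FPKM in culture, against 7.31 to 8.64 FPKM in vehicle libraries (1.65). Edem1 was at 50.3 FPKM in culture, against 13.1 to 20 FPKM in vehicle libraries (1.63). None of the YKL-05-099 libraries came near these levels, their highest values being 28.6 FPKM for Sec24d, 8.47 FPKM for Ern1 and 30.3 FPKM for Edem1. The isomerase gene Pdia5 was at 15.8 FPKM in culture, against 4.3 to 6.33 FPKM in vehicle libraries (1.48), and P4hb at 998 FPKM, against 377 to 421 FPKM (1.33). Hsp90b1 was at 565 FPKM in culture, against 196 to 280.0 FPKM in vehicle libraries (1.39). Apart and higher as well were Ssr1 (1.24), Derl3 (1.19), Eif2ak3 (1.13), Pdia6 (1.07), Hyou1 (1.06) and Sec61a1 (1.03), while Sdf2l1 (1.07) and Herpud1 (0.98) stayed within the range of the treated libraries. All 6 genes of entry and exit and all 4 isomerases lay above all 8 mouse libraries, against 3 of 9 sensors and transcription factors, 3 of 9 chaperones and cochaperones and 6 of 10 ERAD genes.

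Ppp1r15a was the only one of the 38 apart and lower in culture, at 27.3 FPKM, against 55.6 to 85 FPKM in vehicle libraries (log2 difference -1.29). Its treated libraries lay on the other side, at 85.1 to 131 FPKM. Dnajb9 (21.8 FPKM, log2 difference -0.82), Creb3 (70.7 FPKM, -0.55) and Os9 (29.9 FPKM, -0.49) also lay below all 8 mouse libraries, by less than the limit of size. Atf6b, at 23.2 FPKM, is also counted below all 8, but it was level with the lowest vehicle library at the digits given here. Hspa5 was at 871 FPKM and Xbp1 at 203 FPKM in culture, both inside the mouse range, as were Mbtps1, Creb3l2, Dnajb11, Dnajc3, Sdf2l1, Creld2, Herpud1, Syvn1 and Edem2. By the rule of size 2 of 9 chaperones and cochaperones were apart and higher, against 3 of 4 isomerases. Among other genes of these pathways, 9 of 14 genes of the PERK and ATF4 arm were apart and higher and 1 lower, and 9 of 20 COPII and KDEL receptor genes, 8 of 27 translocon genes, 6 of 23 folding genes and 1 of 22 further ERAD genes were apart and higher, with none lower in these 4 lists. Macrophage and leukocyte markers, given above, were lowest in culture, and since the cultured cells differed from the mouse libraries in the sort, growth and batch, none of these can be told apart.

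**Figure D5:**
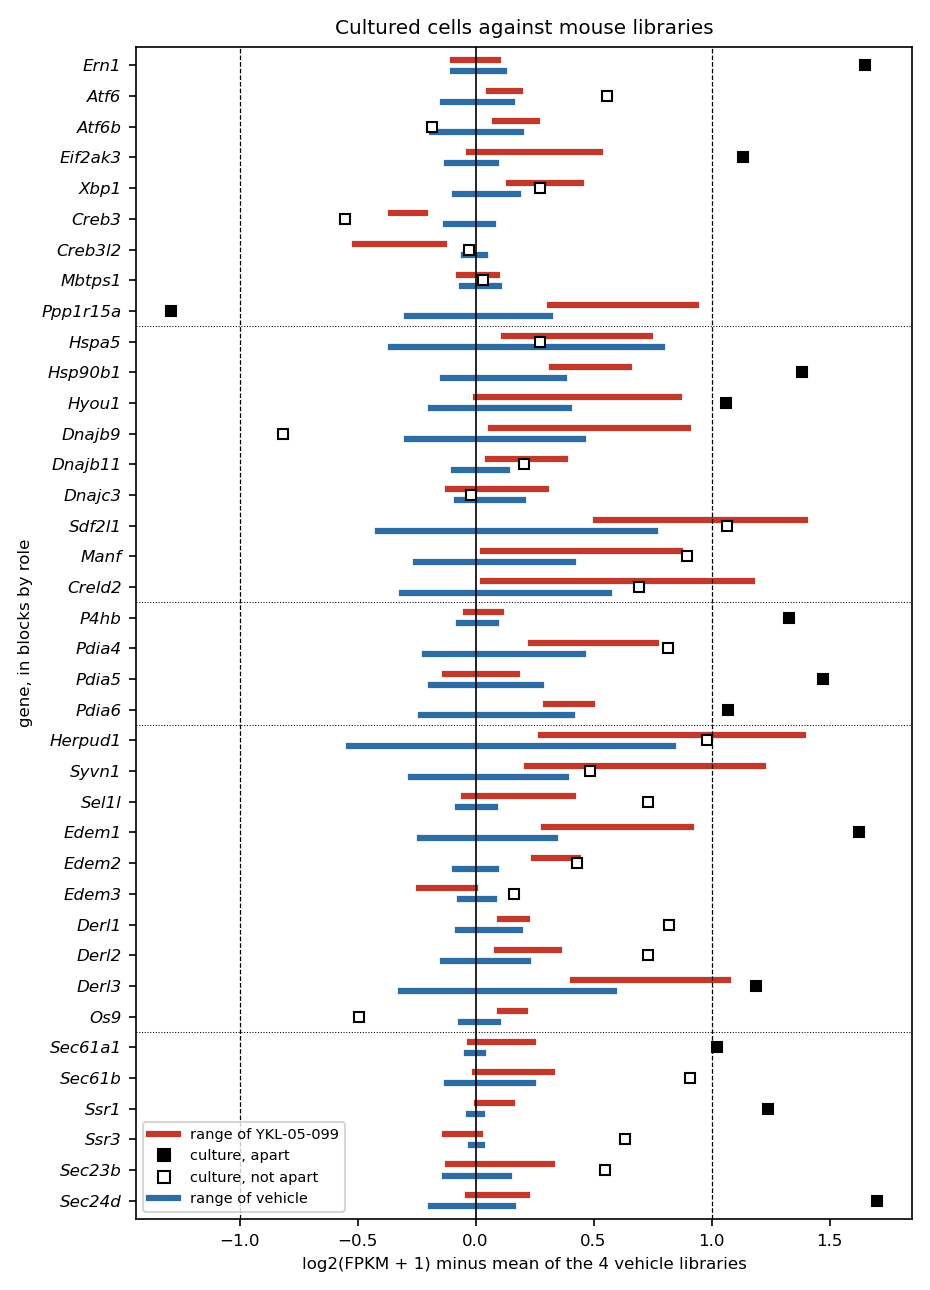
Log2(FPKM + 1) minus the mean of the 4 vehicle libraries (horizontal) for the 38 genes (vertical, in blocks by role): ranges of the YKL-05-099 (red) and vehicle libraries (blue), and the cultured library as a square, filled where apart by the rule of size, with dashed lines at -1 and 1. Filled squares stand at 1.03 to 1.70 for 12 genes and at -1.29 for Ppp1r15a.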

How the data were processed

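Poly(A)-selected, strand-marking libraries (TruSeq Stranded mRNA) were sequenced in pairs on a NovaSeq instrument, per the labels. Per the submitters' processing notes, bcl2fastq 2.19 made the reads and GRCm38 was the build. The aligner and quantifier were not given in the sources used here. Values are FPKM per gene and library, as the authors deposited them, and each value carries a status, per the file headers. Of 48302 rows, 65 second rows of a gene identifier and 7 genes with a failed estimate were left out, which left 48230. Groups and replicate numbers came from the sample titles.

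Whole reads could not be recovered, so no count test was run. limma 3.58.1 (R 4.3.3) was fitted with a mean-variance trend to log2(FPKM + 1), a scale that understates the change of low genes, for 11788 genes with at least 1 FPKM in at least 4 of the 8 mouse libraries, with no covariate. P-values were adjusted by Benjamini-Hochberg over all of them. On simulated data of 11788 genes the comparison of YKL-05-099 with vehicle recovered 100% of 100 genes shifted by 1 log2 unit and 46% of 100 shifted by 0.3, and called 5 of 11588 unchanged genes. The simulation drew noise independently for each gene and library, and shifted only these genes, none of them at the lowest levels. In the data 43.2% of tested genes were called, and single libraries stood high for many of the 38 genes together. The simulated rates therefore need not hold for the data. Sequences are from RefSeq (GRCm38.p6), and 5 of the 38 genes (Derl1, Sec61a1, Hyou1, Atf6 and Manf) had no promoter entry. Gene copies were sought with blastn 2.17.0. Coordinates of genes are those of the deposited table, counted from 1.

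The 38 genes, the gene lists and the marker lists were chosen with earlier results of these data known. Values per library are given for every called gene and every stress sensor, other genes by range or mean. From each list of further genes up to 4 called genes with the smallest p are named, and in culture every gene apart; 1 gene that this rule names is not reported here. Alternatives tried were a pseudocount of 0.1 or 0.5, no filter, a mean of at least 5 FPKM, median-of-ratios, quantile and TPM scaling, no trend, all 9 libraries, a replicate block and leaving out libraries.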

Additional observations from a re-analysis of the deposited data

Results flagged for a closer look

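In 6 of the 76 groups of 4 libraries (38 genes in YKL-05-099 and in vehicle), a single library lay so far from the others that its gap to the nearest took up more of the range of the group than Dixon's 95% critical value, and all 6 were vehicle replicate 4. The values were 1247 FPKM for Hspa5 (gap 0.850 of the range), 280.0 FPKM for Hsp90b1 (0.955), 40.9 FPKM for Dnajc3 (0.921), 86.2 FPKM for Pdia4 (0.836), 88.7 FPKM for Derl1 (0.930) and 5.81 FPKM for Derl3 (0.845). Chance flags about 1 in 20 groups. The groups share libraries and are not independent. Hspa5, Dnajc3 and Derl1 were not called with all libraries, and Hsp90b1, Pdia4 and Derl3 were. What made this library stand apart was not tested.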

How the results depend on the processing

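With 15 of the 38 genes called higher and 2 lower, the counts were the same with pseudocounts of 0.1 and 0.5, TPM scaling and all 9 libraries. Without a mean-variance trend 12 were higher, as Eif2ak3, Pdia4 and Derl2 missed the threshold (limma adjusted p = 0.0538, 0.0521 and 0.0616), and with a mean of at least 5 FPKM 14 were, as Derl3 was no longer tested. Without a filter 6 were called higher, when 24793 genes were tested. After median-of-ratios scaling 4 were lower. Leaving out 1 library, or both replicates 4, gave 7 to 22 higher and 2 to 3 lower, with 21 without vehicle replicate 4. With the replicate number as a block 21 were higher and 2 lower, but deviations of same-numbered libraries correlated at -0.0184, 0.133, -0.0467 and 0.172, not every library was closest to its own number, and the labels give no pairing. At a limit of 2 log2 units no gene was apart in culture, 0 higher and 0 lower. Log2 fold changes that changed sign belonged to uncalled genes near 0: Ern1 0.00 (TPM scaling) and -0.05 to 0.04 with libraries left out; Mbtps1 -0.04 (median-of-ratios), -0.02 (quantile) and -0.01 to 0.05 with libraries left out; Dnajc3 -0.05 (median-of-ratios), -0.03 (quantile) and -0.09 to 0.07 with libraries left out; P4hb -0.03 (median-of-ratios). Likewise Sec23b was at -0.01 (median-of-ratios) and -0.04 to 0.11, Pdia5 at -0.08 to 0.08 and Sec24d at -0.01 to 0.15 with libraries left out. The cause was not tested. FPKM gives no counting error for a gene, and 4 libraries a group limit the precision.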
